A study of Mus musculus with 6 samples.

Results

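The transcripts described here are those of full-length cDNA clones, the array features named for a clone accession that begins with AK or BC. They were chosen by that name alone, which an array carries where its designers gave the probe no RefSeq name. There were 2930 such probes for 2879 clones, of 55681 probes on the array. Of these probes, 2647 carried an AK name and 283 a BC name. RNA came from whole kidneys of C57BL/6 males, an inbred mouse strain in common laboratory use, aged 2 months (called young) or 20 months (called aged). No other treatment or genetic change is given for either age. There were 3 samples per age, each on its own Agilent array read in 1 colour (Cy3). The labels call the RNA preparations independent but do not tie each to its own animal, and p-values then reflect only the variation among these preparations, part of which may be technical.

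Clones with AK names come mostly from the RIKEN mouse cDNA project, which copied whole messenger RNAs from many tissues and developmental stages, and those with BC names come from the Mammalian Gene Collection, which aimed at clones of protein-coding genes. Large-scale cloning of this kind brought up coding messages together with long non-coding RNAs, antisense transcripts, alternative ends of known genes and fragments of unspliced RNA. A clone that never received a RefSeq name is therefore often one of the latter kinds, though it can also be a variant of a well-known gene.

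The files name a clone only by its accession. Of the 2879 clones, 12 could be tied to a gene, because the RefSeq annotation lists the accession as the gene's symbol or synonym; 2867 could not, and they are named by accession without a gene or a place in the genome. Probe sequences were not used here. For clones whose accession is itself a RefSeq gene symbol, the RefSeq promoter table gives the bases around the gene's start, mostly before it. Those of the 2 long non-coding RNA genes among them whose clone probe was above background are shown to give the sequence from which a measured clone's gene starts. BC040756 was above background on all 6 arrays and BC006965 on 3 young and 2 aged arrays. Capitals mark CG, the pair of bases at which mammalian DNA is methylated, and the sequences read 5′ to 3′ on the gene's strand in build GRCm38.p6.
BC040756, plus strand, chr17:46351403-46351702: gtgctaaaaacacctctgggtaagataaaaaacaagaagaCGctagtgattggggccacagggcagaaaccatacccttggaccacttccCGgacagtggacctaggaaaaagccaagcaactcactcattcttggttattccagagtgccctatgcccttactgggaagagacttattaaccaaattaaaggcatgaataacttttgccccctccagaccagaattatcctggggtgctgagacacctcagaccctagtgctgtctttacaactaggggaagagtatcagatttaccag
BC006965, minus strand, chr11:112711307-112711606: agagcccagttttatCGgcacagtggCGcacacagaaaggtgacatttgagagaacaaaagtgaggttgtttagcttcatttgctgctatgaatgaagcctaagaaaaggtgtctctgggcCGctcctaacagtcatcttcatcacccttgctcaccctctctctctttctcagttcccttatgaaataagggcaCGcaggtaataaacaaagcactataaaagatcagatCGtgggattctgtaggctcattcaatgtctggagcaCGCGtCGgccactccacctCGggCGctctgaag
The BC040756 sequence held 2 CG pairs in 300 bases, and 85.9% of the 32851 RefSeq promoters in that table held at least as many. That of BC006965 held 10, a number reached by 43.5% of them. CG reads the same on both strands, and a match is a description of the letters only. The sequences of BC037156, BC042761 and BC051537, whose clone probes were above background on 0 arrays, held 1, 5 and 3 CG pairs. None is described for BC051408, also a RefSeq gene symbol.

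Signals are given as log2 processed signal minus the array's 75th percentile, so that 0 is the level exceeded by 25% of the probes of that array, and are called normalised log2 signal. Precision is limited by having 3 arrays per age. The 75th percentile itself lay between 2412 and 4092 intensity units, lowest on aged replicate 3 and next lowest on young replicate 3. The slide was shared by all 6 arrays, with the young ones in its row 1 and the aged ones in its row 2, so position on the slide and age cannot be told apart. Kidney markers were present on every array: all 10 genes of a proximal tubule list, all 8 of the loop of Henle and distal tubule, all 9 of the collecting duct and all 6 of podocytes were above background on all 6 arrays. Markers of B cells and plasma cells differed with age, with a summed linear level (in units of the array's 75th percentile) of 1.59 to 1.99 at 2 months and 10.6 to 11.4 at 20 months, and 4 of their 7 tested genes were higher. The T cell list spanned 1.61 to 1.84 at 2 months and 2.23 to 3.13 at 20 months (2 of 9 tested genes higher), the macrophage list 19.0 to 26.7 and 28.7 to 32.9 (1 of 8 higher), and the adipocyte list 18.2 to 36.1 and 35.9 to 39.1 (1 of 7 higher). Of 8 urothelium genes 1 of 6 tested was lower, and their summed level spanned 27.5 to 31.5 and 27.4 to 38.0. The erythroid list spanned 57.1 to 57.7 and 45.5 to 53.3, and 0 of its 5 tested genes passed with limma (adjusted p 0.173 to 0.779). In these 6 lists 0 genes with a probe were below background on all 6 arrays, and the part of these cells in the clones' values was not tested. In bulk RNA, fewer cells of a type and less RNA per cell cannot be told apart.

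The mean share of detectable clone probes was lower on the aged arrays, but the ages overlapped. Well above background were 64.0%, 58.3% and 40.6% of clone probes on young replicates 1, 2 and 3 and 49.5%, 41.9% and 28.9% on aged replicates 1, 2 and 3. Young replicate 3 lay below aged replicates 1 and 2. The means were 54.3% ± 12.2 for young and 40.1% ± 10.4 for aged samples (SD, n = 3 each). The difference of -14.2 points did not pass a two-sided exact permutation test over arrays (p = 0.3, where 0.1 is the smallest p that 3 against 3 allow). RefSeq-named probes, mostly of known genes, had 76.8% ± 5.91 and 69.5% ± 6.22. On each array the share of clone probes was below theirs, with differences of -17.3, -20.7 and -29.5 points on the young and -25.8, -28.4 and -33.9 points on the aged arrays. The change of this gap with age, -6.89 points, did not pass the exact permutation test either (p = 0.3). Arrays of 1 replicate number lay in 1 column of the slide, a split chosen after seeing the data. Within columns 1, 2 and 3 the share of clone probes differed between aged and young by -14.5, -16.5 and -11.7 points and its gap to RefSeq-named probes by -8.47, -7.76 and -4.44 points. All were of 1 sign, which was not tested. Probes for lincRNA regions of the genome had 52.7% ± 13.7 and 36.8% ± 11.4.

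**Figure D1:**
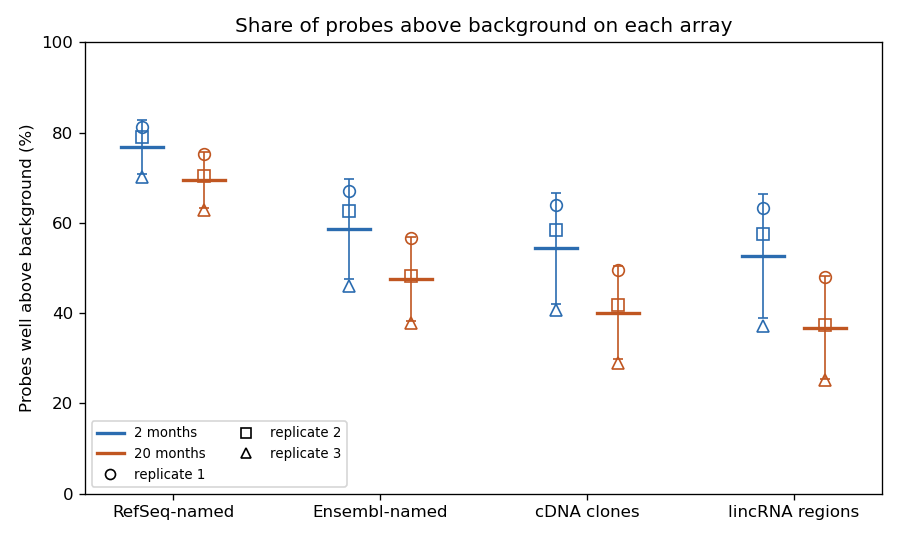
Percentage of probes well above background (vertical axis) on each array, for probes named by RefSeq, by Ensembl, by a cDNA clone and by a lincRNA region. Symbols are arrays by replicate number, lines the mean and bars the SD of 3 arrays per age; clone probes range from 28.9% to 64.0% and lie below RefSeq-named probes on each array.

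Of the 2930 clone probes, 827 were above background on all 6 arrays and 974 on 0. Between these ends the pattern was uneven. Above background on at least 1 young and 0 aged arrays were 466 probes, while 46 were so on at least 1 aged and 0 young arrays. Counts of this kind are not given over all probes of the array, so they are not read as a trait of the clones. Of all probes, 72.9%, 69.0% and 55.3% were above background on young replicates 1, 2 and 3. On the aged replicates these shares were 62.8%, 55.7% and 46.3%. Clear cases of detection at a single age were few: 6 probes were above background on all 3 young and 0 aged arrays, and 1 probe, that of BC106159, on all 3 aged and 0 young arrays. The lowest normalised log2 signal counted as above background was -6.92, -6.66 and -5.23 on young replicates 1, 2 and 3 and -5.82, -5.34 and -3.96 on the aged ones. It was thus higher on the aged array of each number. Readings over it were not always counted, and its part in these counts was not tested.

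**Figure D2:**
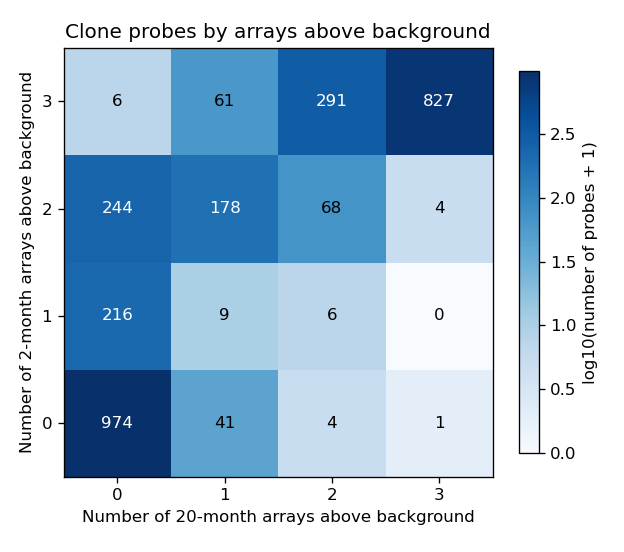
Number of clone probes (in each cell) by the number of young arrays (vertical axis) and aged arrays (horizontal axis) on which they were well above background, with colour on a log10 scale. The 974 probes at the lower left were above background on 0 arrays and the 827 at the upper right on all 6.

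The comparison asked which clone transcripts differ in level between young and aged kidney. Tested were the 1190 of 2930 clone probes that were above background at 1 age or both, on each array of that age with a value. Some of these passed through the age at which they were bright, so counts over them are given as descriptions. With limma and Benjamini-Hochberg adjustment over all 30821 tested probes of the array, 18 clone probes rose and 12 fell in aged kidney at an adjusted p under 0.05. These 30 are 2.52% of the tested clone probes, near the 2.16% called among all tested probes, and the shares of rises and of falls, 1.51% and 1.01%, stood beside 1.49% and 0.668% of all tested probes. At least 2-fold were 16 of the rises and 6 of the falls, among 1190 tested clone probes. Over all 30821 tested probes these numbers were 371 (1.2%) and 101 (0.328%). The arrays of the 2 ages did not overlap for any of the 30. Over all tested clone probes the groups did not overlap for 82 higher and 157 lower probes (6.89% and 13.2%), beside 8.25% and 12.6% of all tested probes. The count of calls depended on single arrays: leaving out young replicate 1 gave 15, young replicate 2 gave 16 and young replicate 3 gave 18. Leaving out aged replicate 1 gave 97 (22 higher, 75 lower), aged replicate 2 gave 14 and aged replicate 3 gave 24. Array weights gave 24 higher and 27 lower, and normexp background correction 22 higher and 7 lower. Without aged replicate 1, 8.15% of tested clone probes were called, beside 6.60% of all tested probes. These shares were 4.29% and 4.22% with array weights and 2.44% and 1.89% with normexp. Testing every probe, dim ones included, gave 3 higher and 0 lower. The share over all tested probes is not given for the other fits, so their counts are not read as particular to the clones.

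**Figure D3:**
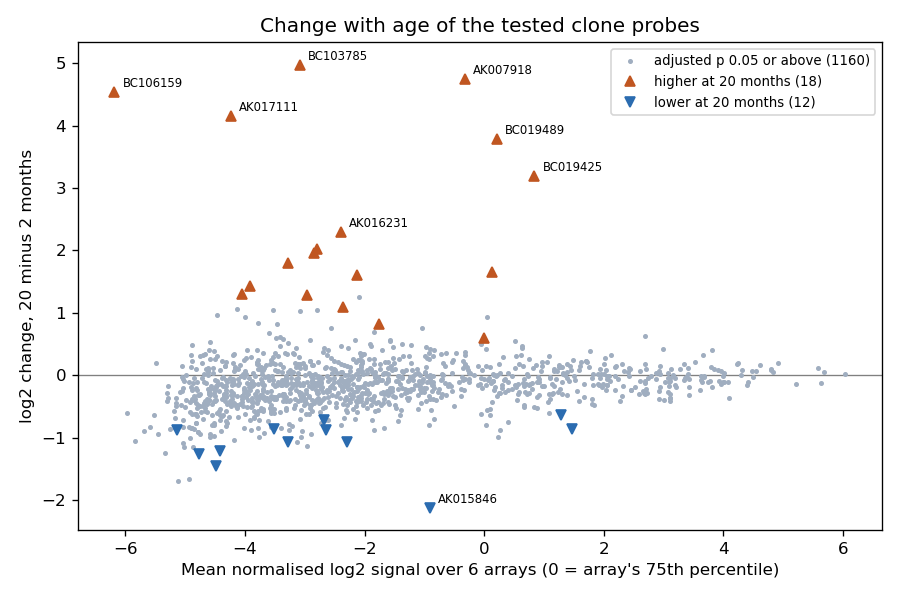
Change of each of the 1190 tested clone probes, as aged minus young log2 signal (vertical axis), against its mean normalised log2 signal over 6 arrays (horizontal axis). Triangles mark the 18 higher and 12 lower probes past the threshold; 7 rises and 1 fall with a change over 2.1 are named.

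BC103785 and AK007918 had the largest changes, in this order here and in the opposite order with normexp background correction (3.90 and 4.51). For BC103785 the normalised log2 signal was -5.74, -5.55 and -5.43 on young replicates 1, 2 and 3 and -0.06, -1.24 and -0.47 on the aged ones. The groups were far apart, and the clone was above background on 2 of 3 young and all 3 aged arrays. The log2 change was 4.98 ± 0.28 (moderated SE, n = 3 per age, limma adjusted p = 0.000359), a 31.6-fold difference. BC103785 was tested through its aged arrays alone, and its p and fold difference rest in part on a young reading below background. AK007918 had -3.05, -2.46 and -2.59 at 2 months and 0.82, 3.53 and 1.79 at 20 months. All 6 values were above background, with a wide spread among the aged samples. It rose by 4.74 ± 0.61 (adjusted p = 0.0105), with changes of 4.0 to 5.36 when 1 array was left out.

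BC019489 and BC019425, both with BC names, were also above background on all 6 arrays. BC019489 had -1.76, -1.59 and -1.70 at 2 months and 1.1, 3.12 and 2.07 at 20 months, a rise of 3.78 ± 0.45 (adjusted p = 0.00718). BC019425 had -1.44, -0.51 and -0.33 at 2 months and 2.95, 1.74 and 2.62 at 20 months, a rise of 3.20 ± 0.39 (adjusted p = 0.00762). The 2 clones did not order the aged samples alike: BC019489 was highest on aged replicate 2, where BC019425 was lowest. AK007918 was, like BC019489, highest on aged replicate 2 and lowest on aged replicate 1.

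AK017111 and BC106159 rose from at or near background. AK017111 had -5.43, -6.22 and -7.31 on the young arrays, 2 of them above background, and -2.13, -1.99 and -2.36 on the aged arrays. It rose by 4.16 ± 0.43, or by 2.63 with normexp correction (limma adjusted p = 0.00408 and 2.79e-05). Like BC103785, it was tested through its aged arrays alone. On the young arrays BC106159 was above background 0 of 3 times, and it read -4.26, -4.36 and -3.14 on the aged arrays. Its mean at 20 months lay 5.11-fold over the mean of the lowest signals above background on the young arrays. That is no firm minimum, since readings over the lowest such signal were not always counted as above background. Its measured means were -8.45 and -3.92, with a limma adjusted p of 0.00571. It was tested through its aged arrays alone, and this p rests on 3 young readings that were all below background. With normexp correction its fitted change was 1.87 (adjusted p = 0.014).

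A middle group of 6 probes rose by 1.61 to 2.29 and was above background on all 6 arrays. AK016231 had -3.73, -3.50 and -3.39 at 2 months and -0.99, -1.08 and -1.69 at 20 months, a rise of 2.29 ± 0.21 (adjusted p = 0.00238). AK007033 had -3.51, -4.23 and -3.67 against -1.93, -1.68 and -1.73 (2.02 ± 0.20, adjusted p = 0.00354). The other probes of this group showed the same separation of the ages. AK033061 had -2.93, -3.08 and -2.77 at 2 months and -1.0, -1.61 and -1.35 at 20 months (1.61 ± 0.18, adjusted p = 0.00559). BC048373 had the tightest values, -0.70, -0.76 and -0.63 against 1.02, 0.84 and 1.02, and rose by 1.65 ± 0.11 (adjusted p = 0.000799). The remaining 2 probes of the group belong to 1 clone, AK076616, and are described with the repeated clones. Of the 12 largest rises, 11 were above background on at least 1 array of each age. These 11 kept an adjusted p under 0.05 in each of the 6 fits that left out 1 array. Among them, BC103785 and AK017111 were tested through their aged arrays alone. The fits used the same set of tested probes, and the 12 were picked from these same data, so this is no independent support. BC106159 kept its call as well, but its young readings were all below background in each of these fits.

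The other 6 rises, outside the 12 largest and named after their values were seen, were BC027633 (1.44), AK048002 (1.30), AK012899 (1.29), AK030809 (1.1), AK012221 (0.82) and AK036481 (0.59), given as log2 changes. AK030809 passed in all 6 leave-one-out fits. It had -2.78, -2.98 and -2.96 at 2 months and -1.65, -1.91 and -1.87 at 20 months. The other 5 did not pass in 1 to 5 of those fits; for AK036481 the adjusted p then reached 0.188. All but AK048002, above background on 2 young arrays and so tested through its aged arrays alone, were measured on all 6.

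**Figure D4:**
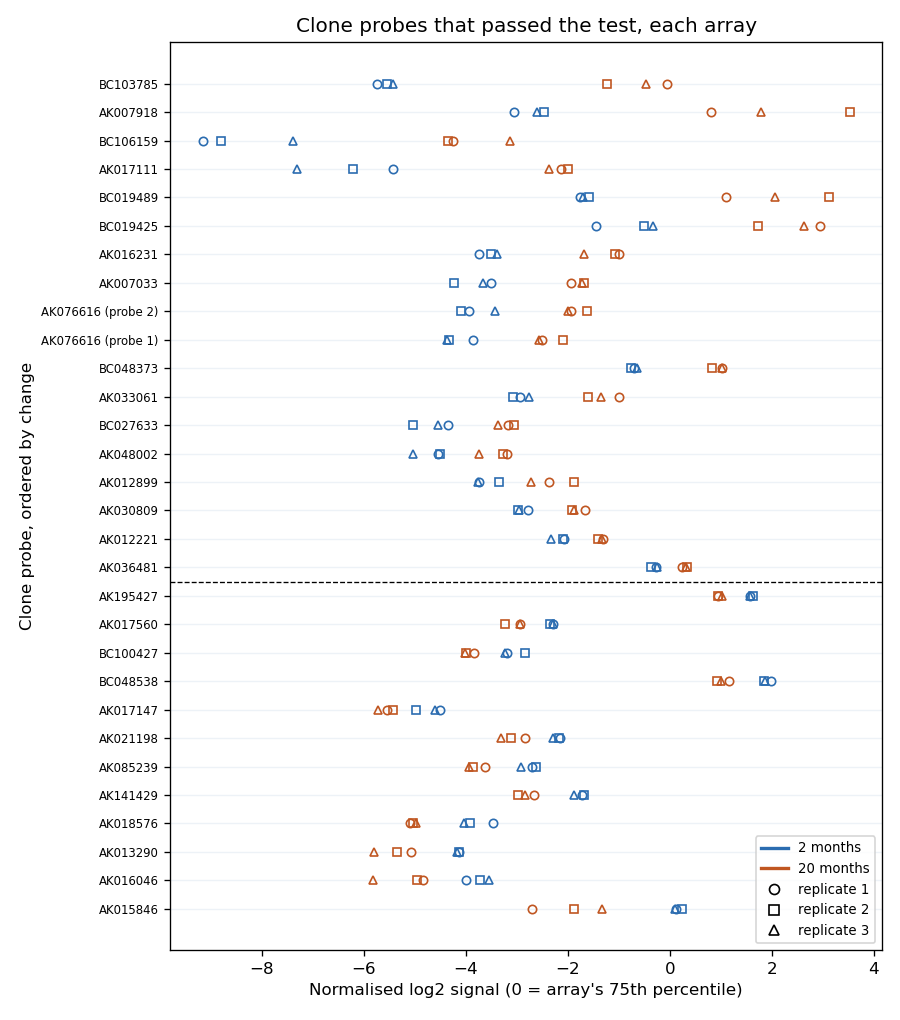
Normalised log2 signal on each of the 6 arrays (horizontal axis) for the 30 clone probes past the threshold (vertical axis, ordered by change; falls lie under the dashed line). Young and aged symbols do not overlap in any row; AK007918, BC019489 and AK015846 show the wide spread of their aged values.

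Among the falls, AK015846 had the largest change. It had 0.13, 0.25 and 0.09 on young replicates 1, 2 and 3 and -2.71, -1.87 and -1.33 on the aged ones, all above background. It fell by 2.13 ± 0.32, a 4.37-fold difference (adjusted p = 0.0193). The young values lay close together and the aged values spread widely. Its change ran from -1.76 without aged replicate 1 to -2.45 without aged replicate 3, but the call was lost in 4 of the 6 fits (adjusted p up to 0.0837).

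Falls measured on all 6 arrays were smaller after AK015846. AK141429 had -1.72, -1.68 and -1.88 at 2 months and -2.65, -2.98 and -2.84 at 20 months and fell by 1.07 ± 0.13 (adjusted p = 0.00837). BC048538, one of the brighter clone probes, had 1.98, 1.85 and 1.87 against 1.17, 0.92 and 1.00 and fell by 0.87 ± 0.12 (adjusted p = 0.0138). AK195427 had 1.58, 1.63 and 1.58 against 0.94, 0.94 and 1.02, the narrowest values among the falls. It fell by 0.63 ± 0.10 (adjusted p = 0.0288). AK021198 (-0.88) and AK017560 (-0.72) completed this group.

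The other 6 falls were tested through their young arrays alone, and their p and size rest in part on aged readings below background. AK016046 (-1.46), AK018576 (-1.22), AK085239 (-1.07) and BC100427 (-0.86) were above background on 2 of 3 aged arrays, and AK013290 (-1.27) and AK017147 (-0.87) on 1, so the size of these log2 changes is less certain. With normexp correction the changes of AK016046, AK013290, AK018576 and AK017147 were -0.65, -0.70, -0.76 and -0.44, and 7 of the 12 falls lost their call. Each of the 12 falls lost its call in at least 1 leave-one-out fit, with 11, 10 and 9 calls ended without young replicates 1, 2 and 3 and 0, 11 and 5 without aged replicates 1, 2 and 3. Among the 18 rises, 13 kept their call in every leave-one-out fit.

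Just outside the threshold lay BC040756, whose gene start is printed above. Its values were -0.35, -0.60 and -0.33 at 2 months and 0.20, 0.49 and 0.83 at 20 months. The groups did not overlap, and the log2 change of 0.93 ± 0.18 had an adjusted p of 0.0549. It passed with normexp correction (0.0246), median centring (0.0411), a filter requiring signal on all 6 arrays (0.0258), a trended robust variance (0.0106), array weights (0.0221) and without aged replicate 1 (0.0204). It did not pass in the other 10 settings, replicate block and no filter among them, and its adjusted p reached 0.331. The next clones were AK040640 (-1.25, adjusted p = 0.0566) and AK038691 (-0.88, adjusted p = 0.0624). Without adjustment, 62 of 1190 tested clone probes were higher and 151 lower at a limma p under 0.05. Over all 30821 tested probes these numbers were 1813 (5.88%) and 3035 (9.85%).

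The 6 clone probes above background on all 3 young and 0 aged arrays were those of AK016705, AK132634, AK047917, AK006302, AK144327 and AK078028. They were tested through the young arrays alone, and all their aged readings were below background. With limma 0 of the 6 passed, and 2 had an unadjusted p under 0.05. AK016705 had -5.70, -5.51 and -4.69 at 2 months and -6.71, -6.21 and -6.16 at 20 months. For AK132634 the comparison used for BC106159, of means against the lowest signals above background, gave 1.16-fold in the direction of a fall. The ages overlapped, with -4.87, -4.88 and -4.72 against -5.84, -6.91 and -4.33, so no fall is shown. For the other 5 this comparison gave no value over 1-fold.

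Some clones were measured by more than 1 probe, which gives a second reading of the same transcript. Of 46 clones with 2 to 4 probes, 10 had 2 tested probes, 19 had 1 and 17 had 0. The log2 changes of the 2 probes of a clone differed by 0.11 to 0.40, with a median of 0.28, and had the same sign for 8 of the 10 clones. The exceptions were AK017289 (-0.06 and 0.34) and AK020613 (-0.02 and 0.09). Probes of 1 clone share their samples and are not independent replicates.

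AK076616 was the only clone with more than 1 called probe. Its first probe had -3.85, -4.32 and -4.37 at 2 months and -2.51, -2.09 and -2.56 at 20 months, a rise of 1.79 ± 0.19 (adjusted p = 0.00507). The second had -3.93, -4.10 and -3.43 against -1.94, -1.62 and -2.00, a rise of 1.97 ± 0.20 (adjusted p = 0.00393). Both were above background on all 6 arrays, and both were highest on aged replicate 2. Other pairs had smaller changes: AK090034 had 0.31 and 0.69, AK143754 0.36 and 0.67, and AK036683 -0.55 and -0.18, with an adjusted p of 0.102 or more for each.

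**Figure D5:**
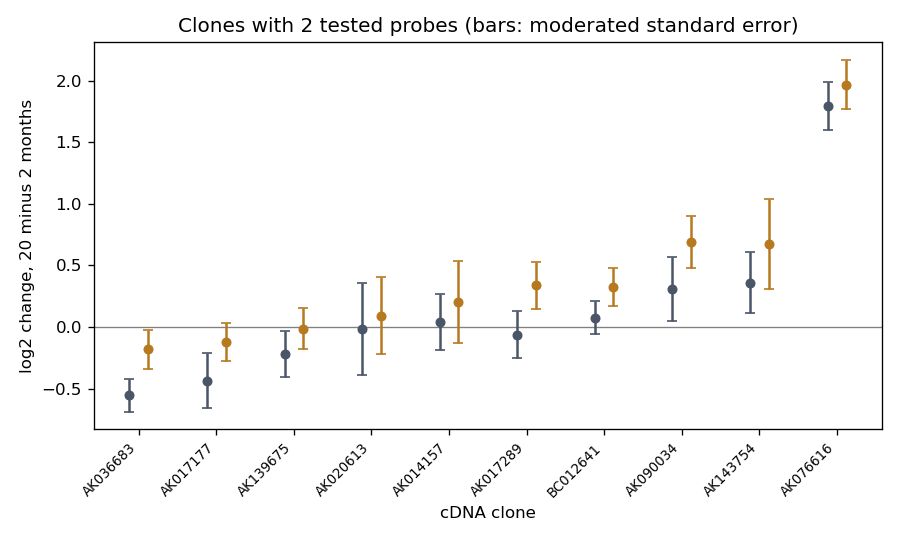
Log2 change, aged minus young (vertical axis), of both tested probes of each of 10 clones (horizontal axis, ordered by mean change), with the moderated standard error as bars. The 2 probes of AK076616 lie at 1.79 and 1.97, and the other pairs between -0.55 and 0.69.

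AK018620 and AK053689 were each spotted 10 times on every array, which shows how closely spots of 1 probe repeat. The SD between spots was 0.05 to 0.14 log2 units on the 6 arrays for AK018620 and 0.06 to 0.22 for AK053689. AK018620 had -1.57, -1.54 and -1.55 at 2 months and -1.81, -1.84 and -1.82 at 20 months. AK053689 had -3.42, -3.85 and -3.51 against -3.40, -2.97 and -3.48. Neither passed the test, with log2 changes of -0.27 ± 0.10 (limma adjusted p = 0.269) and 0.31 ± 0.18 (0.450).

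The 12 clones tied to a gene showed which of these genes' clone probes had signal in kidney. Of these, 7 were above background on 0 arrays, among them BC026991 (Samd11), BC037156, BC042761, BC051401 (Dnah3, a motor protein of cilia), BC051408 and BC051537. The other 5 were tested and 0 passed; none but BC040756 had an unadjusted p under 0.05. BC017131 (Cdk10, a cyclin-dependent kinase) changed by -0.05 ± 0.13, BC049953 (Zc3h3, a zinc finger protein) by 0.04 ± 0.15, BC042569 (Zkscan7, a zinc finger protein) by 0.21 ± 0.13 and BC006965 by -0.38 ± 0.19.

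For 6 of these genes the array also held a RefSeq-named probe, so both readings could be set side by side. For Cdk10 the clone and RefSeq probes changed by -0.05 and -0.17, for Zc3h3 by 0.04 and 0.36 and for Zkscan7 by 0.21 and -0.09, with adjusted p of 0.447 or more. For BC006965 only the clone probe had signal: it read -4.21, -4.12 and -3.75 at 2 months and -4.23, -4.73 and -4.25 at 20 months, while the RefSeq-named probe was above background on 0 arrays. For Samd11 both were below background.

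The 2 clone collections differed in how much of them was measured. Of the BC probes 54.4% were above background on all 6 arrays and 20.8% on 0, against 25.4% and 34.6% of the AK probes. Of 174 tested BC probes 6 rose and 2 fell (4.6%), with a median log2 change of -0.08, and of 1016 tested AK probes 12 rose and 10 fell (2.17%), with a median of -0.16. The background is the 2.16% of all tested probes, with a median of -0.05. Among AK clones from AK002255 to AK019999, 6 of 237 tested probes rose and 6 fell (5.06%). From AK020016 to AK039976, 3 of 153 rose and 1 fell (2.61%), and from AK040058 to AK079976, 3 of 223 rose and 0 fell (1.35%). From AK080008 to AK220476, 0 rose and 1, 1 and 1 fell in blocks of 117, 221 and 65. The blocks were set after the values were seen, and the difference between blocks or collections was not tested.

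Among the 827 clone probes above background on all 6 arrays the median log2 change was -0.08, beside -0.08 for lincRNA region and -0.01 for RefSeq-named probes. Over all 1190 tested clone probes it was -0.14 (quartiles -0.37 and 0.06), beside -0.17 and -0.02, with 824 changes below 0 and 366 above 0. These last values are no even sample of both directions: 358 clone probes were tested through the young arrays alone and 5 through the aged arrays alone. The median normalised log2 signal of the tested clone probes with a value on every array was -2.16, -2.32 and -2.46 on young replicates 1, 2 and 3 and -2.33, -2.39 and -2.57 on the aged ones, so the ages overlapped. With median centring the median change of tested clone probes was -0.10 and that of all tested probes -0.01. The median SD within an age was 0.26 for tested clone probes, 0.25 for lincRNA region probes, 0.22 for Ensembl-named and 0.17 for RefSeq-named ones. Where all 6 arrays were above background it was 0.22 for clone, 0.20 for lincRNA region and 0.16 for RefSeq-named probes.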

How the data were processed

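Per the labels, kidney RNA was extracted with Trizol, and its cDNA took up Cy3 during random-primed Klenow synthesis, so either strand can carry label. Per the file headers, arrays of design 028005 (grid on mouse build mm9) were quantified with Agilent Feature Extraction 11.5.1.1. The authors' processed signal intensity is background-subtracted and detrended within each array, with no scaling between arrays. The authors' deposited value table is on the log2 scale and lies within 0.01 of the log2 processed signal minus each array's 75th percentile for 99.8% to 99.9% of probes per array.

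From these files, control and outlier-flagged spots were left out, the spots of a probe were averaged as log2 values and each array's 75th percentile was subtracted. All 30821 probes above background on all measured arrays of at least 1 age were fitted together with limma 3.58.1 (lmFit, eBayes, two-sided), adjusted by Benjamini-Hochberg over all of them; 1 tested clone probe lacked a value on 1 array. A probe counted as above background where over 0.5 of its spots were flagged so, and no clone probe was saturated.

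Named were the 12 largest rises and falls past the threshold without overlap and the 6 largest of each direction above background on all 6 arrays; others are said to be chosen otherwise. Groups by product or source tissue could not be formed, since the files pair clones with no description. Members, lists and tests were chosen with earlier results of these data known. Gene names came from the RefSeq annotation of GRCm38.p6, with 26762 RefSeq-named probes matched. The result of 1 clone tied to a gene is not reported here. Normexp with an offset of 50 was run on the median spot signal. No slide block was fitted, since all arrays lay on 1 slide. Software was R 4.3.3, Python 3.11.15, numpy 2.4.6, pandas 2.3.3, matplotlib 3.10.9 and version 1.17.8 of data.table.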

Additional observations from a re-analysis of the deposited data

Results flagged for a closer look

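The probes of 4 clones outside the test were above background on aged arrays and on 0 young arrays, and each was so on 2 aged arrays. AK006790 read -2.44 and -3.28 on aged replicates 1 and 2 and -5.92 on aged replicate 3, against -9.25, -8.97 and -7.26 on the young arrays. AK030098 read -3.64, -2.55 and -5.93 on the aged and -7.04, -8.13 and -7.25 on the young arrays. AK163540 read -3.61, -3.86 and -6.08 against -9.21, -9.0 and -7.21. AK080606 read -4.91, -4.97 and -4.67 against -7.71, -7.79 and -7.23. On each of the 4 the reading not above background was that of aged replicate 3, the dimmest array, and no difference was tested.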

How the results depend on the processing

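Both scalings other than the 75th percentile gave the same direction for each of the 30 called probes, and none of the 30 changed sign in any setting run. The numbers of calls were those of the report with the authors' value table and with outlier spots kept. Quantile normalisation ended 4 of the 30 calls, median centring 3, a trended robust variance 3, array weights 1 and normexp 7. Testing with no filter ended 28 (16 rises and 12 falls). Requiring signal on all 6 arrays kept only 14 of the rises and 6 of the falls in the test. It ended 0 of these, with an adjustment over fewer probes.

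Calls moved by over 1.5 times as follows. With normexp 7 were lower, and with the replicate block also 7. With no filter on dim probes 3 were called, 3 higher and 0 lower, 1 AK and 2 BC. With array weights 51 were called, 27 of them lower and 41 of them AK. Of the called clones 60.0% were higher, against 75.9% with normexp, 47.1% with array weights and 22.7% without aged replicate 1. Over all called probes of the array the shares were 69.1%, 80.0%, 53.7% and 30.0%. When 1 array was left out in turn, calls ranged from 14 to 97, falls from 1 to 75, rises from 13 to 22, AK calls from 9 to 83 and BC calls from 5 to 14. Without aged replicate 1, 8.15% of tested clone probes and 6.60% of all tested probes were called. The cause of these differences was not tested, and they are not read as particular to the clones.

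The labels number replicates alike in both ages, but same-numbered arrays did not deviate together throughout: their deviations from the age means correlated at 0.11, -0.13 and 0.20 for numbers 1, 2 and 3. With the replicate block 23 clone probes were called, 16 higher and 7 lower, and 8 of the 30 calls ended. The share of clone probes above background differed by -8.64 to -21.1 points and its gap to RefSeq-named probes by -4.29 to -10.4 points when 1 array was left out, with permutation p of 0.1 to 0.5. The median change of tested clone probes stayed between -0.21 and -0.07 in every setting. Signal over background limits the clones near -5, whose sizes of change are less certain on the dimmer arrays.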
